A study of Mus musculus with 12 samples.

Results

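Hedgehog signalling in the hair follicle was followed through 9 genes chosen for their roles, the ligand Shh, its receptor Ptch1, the coreceptor Gas1, the ligand-binding inhibitor Hhip, the transducers Smo and Sufu, and the transcription factors Gli1, Gli2 and Gli3. They are 9 of the 18193 genes measured in sorted cells of mouse back skin. Of the probe sets that carry a gene's symbol alone, the brightest on average was used, and the other probe sets served as a check. Sonic hedgehog (Shh) is a secreted ligand. Without it the receptor Ptch1 holds back the membrane protein Smo, and binding of the ligand frees Smo, which lets Gli proteins act as activators past their inhibitor Sufu. Ptch1, Gli1 and Hhip are themselves transcribed in response to the pathway, so their levels are often read as its output, and in the hair follicle Shh made by epithelial cells is needed for the growth of a new follicle.

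The data were 12 Affymetrix arrays, each of labelled cRNA from cells sorted with Rosa26-YFP, P-cadherin and CD34. Hair germ (HG) cells, which sit at the base of the resting follicle, and bulge cells above them are both hair follicle stem cells (HFSCs), and the third fraction was total skin keratinocytes. Cells came from TßRII-cKO mice and TßRII-Het mice, that is, mice with a conditional knockout of the type II TGF-beta receptor and their Het controls. All were females of mixed C57BL/6 and CD1 strain, aged 72 to 74 days. In set 2 the labels call the HFSCs of cKO mice aberrantly quiescent and those of Het mice activated, and in set 1 they call HFSCs of both genotypes quiescent. Each genotype, fraction and set had 1 array, and total keratinocytes carry no state in the labels, so 8 of 10 groups had 1 array and the cKO and Het totals had 2 each. The sources used here do not name the Cre that made the knockout, the number of mice per array, or whether HG and bulge cells of 1 condition came from the same mice. The p-values below therefore measure the spread between arrays, and because RNA was pooled over cells, fewer cells of a type and less RNA per cell cannot be told apart.

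The median signal per array ran between 64.1, on the Het HG array of set 2, and 109, on the cKO bulge array of set 1, on the linear scale. Next lowest were the total arrays of set 2, with 65.7 in Het and 66.5 in cKO. Cd34, the bulge sorting marker, had log2 signals of 7.65 to 8.69 in HG and 14.42 to 14.79 in bulge, and Cdh3, which encodes P-cadherin, 9.22 to 10.61 in HG and 8.02 to 9.10 in bulge. Tgfbr2 had log2 signals of 11.31 to 12.14 in cKO cells and 10.35 to 12.39 in Het cells, and it does not check the genotype labels, since no source used here places its probes inside or outside the deletion. Values below are log2 of the deposited signal, with signals under 20.7 (log2 4.37) set to that floor. Differences are on the same log2 scale, were tested with limma across all genes and are called changed at a Benjamini-Hochberg adjusted p under 0.05.

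Promoter sequences of Ptch1 and Hhip are shown because both genes are known Hedgehog targets, and their levels differed between HG and bulge in opposite directions. The sequences are the 250 bases before the annotated start in RefSeq (GRCm38.p6), where 7 of the 9 genes had an entry, and capitals mark CCACCC, the core of the binding motif of Gli proteins. Ptch1 lies at chr13:63565736-63565985 and Hhip at chr8:80058009-80058258, both on the minus strand.
Ptch1: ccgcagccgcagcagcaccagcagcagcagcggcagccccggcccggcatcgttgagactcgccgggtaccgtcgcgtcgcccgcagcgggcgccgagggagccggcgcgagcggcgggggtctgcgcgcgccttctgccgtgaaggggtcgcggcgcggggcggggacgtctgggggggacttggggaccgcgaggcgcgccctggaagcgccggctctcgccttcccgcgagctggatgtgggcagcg
Hhip: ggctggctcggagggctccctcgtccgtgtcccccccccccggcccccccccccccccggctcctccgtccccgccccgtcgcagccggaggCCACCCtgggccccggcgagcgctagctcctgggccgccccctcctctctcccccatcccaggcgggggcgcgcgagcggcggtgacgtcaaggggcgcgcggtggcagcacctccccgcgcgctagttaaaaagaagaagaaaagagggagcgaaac
The full motif GACCACCCA, searched on both strands, was in none of the 7 promoters and in 0.225% of 32851 RefSeq promoters of the same length. Its core CCACCC, which overlaps it, was in 28.1% of them. Among the 7 genes the core was found once in Hhip, 158 bases before the start, once each in Smo and Gli3 and at 2 places in Gli2, and it was not in these windows of Ptch1, Sufu and Gas1. The Ptch1 entry covers 1 start of the gene.

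HG cells carried more Shh, Ptch1 and Gli1 than bulge cells, and less Hhip and Gas1. These 5 of 9 genes passed the test, 3 higher and 2 lower in HG, where 19.2% of the 12589 genes tested passed, 8.44% higher and 10.7% lower. The same 5 had HG and bulge arrays that did not overlap, as did 21.5% of the genes tested. Smo, Sufu, Gli2 and Gli3 did not pass. The median difference over the 9 genes was -0.06, against -0.02 over all genes, and the median absolute difference was 0.86 against 0.37.

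**Figure D1:**
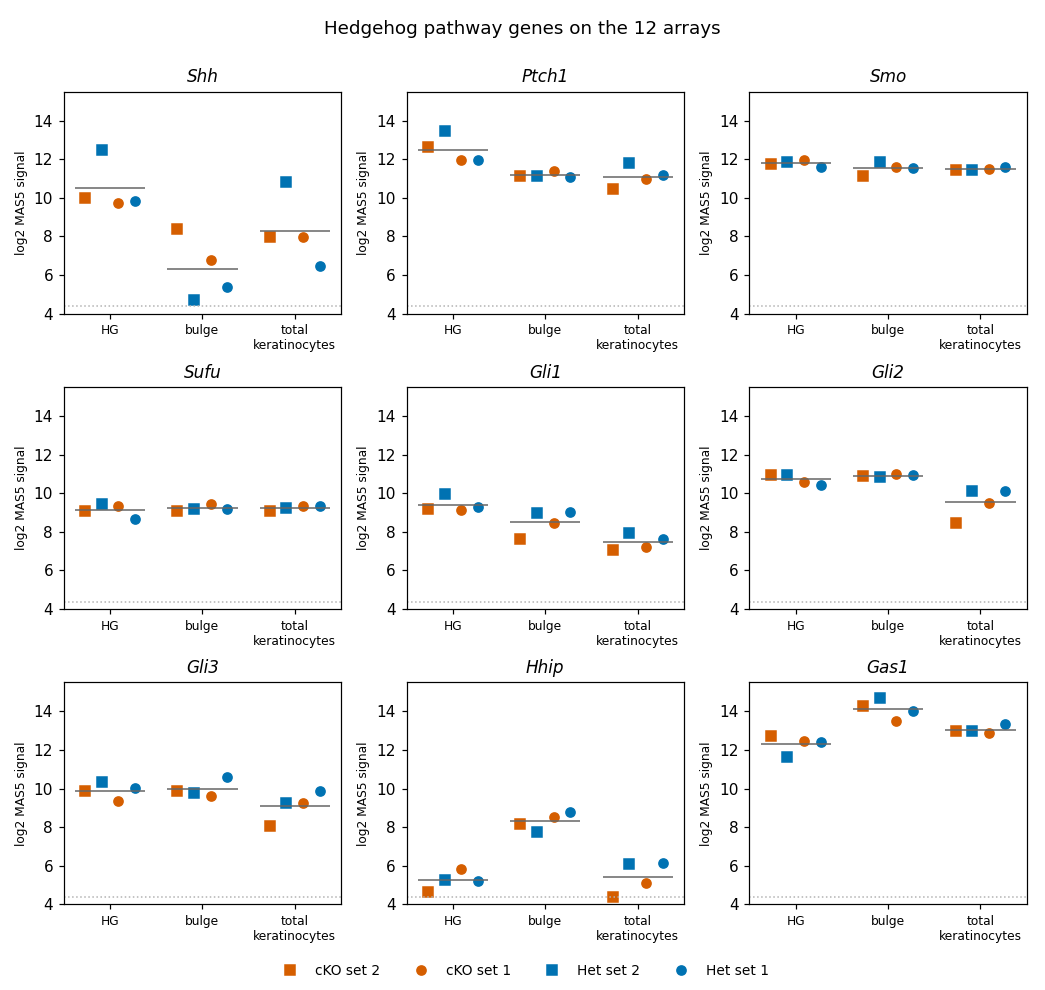
Log2 MAS5 signal of the 9 genes on every array, by fraction, with set 2 as squares, set 1 as circles, cKO in orange and Het in blue. Grey lines are the means of 4 arrays and the dotted line is the floor of 4.37. In each of the 4 conditions of genotype and set Shh is highest in HG and Hhip in bulge.

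Shh had log2 signals in HG of 9.97 in cKO set 2, 12.49 in Het set 2, 9.75 in cKO set 1 and 9.84 in Het set 1. In bulge it had 8.41, 4.71, 6.76 and 5.37 in the same conditions. Every HG array lay above every bulge array, and the Het bulge array of set 2 was close to the floor. The difference was 4.21 (SE 0.79, 95% interval 2.42 to 5.99, limma adjusted p = 0.00649), and by condition it ran between 1.57 in cKO set 2 and 7.78 in Het set 2. The condition with the activated cells contributed the widest gap, and without its arrays the difference was 3.01 (adjusted p = 5.63e-05).

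Ptch1, the receptor for Shh and a target of the pathway, had 12.63, 13.45, 11.95 and 11.96 in HG, in the order cKO set 2, Het set 2, cKO set 1 and Het set 1 that is kept from here on. In bulge it had 11.14, 11.13, 11.37 and 11.07. The fractions did not overlap, and the HG arrays, with both set 2 arrays on top, were more spread than the bulge arrays. HG exceeded bulge by 1.32 (SE 0.26, adjusted p = 0.00813), and by 0.99 (adjusted p = 7.84e-04) without the Het set 2 arrays.

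Gli1, the transcription factor most often used as a readout of the pathway, had 9.18, 9.94, 9.15 and 9.27 in HG and 7.65, 8.95, 8.43 and 9.04 in bulge. The lowest HG array stood just above the highest bulge array. The difference was 0.86 (SE 0.24, adjusted p = 0.035), and it no longer passed without the arrays of cKO set 1 (0.91, adjusted p = 0.0913) or of cKO set 2 (0.64, adjusted p = 0.15).

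Hhip encodes a membrane protein that binds Hedgehog ligands and keeps them from Ptch1. It had 4.66, 5.26, 5.83 and 5.21 in HG and 8.18, 7.77, 8.51 and 8.76 in bulge. The bulge arrays stood well above all HG arrays, which were near the floor. HG was lower by a log2 difference of -3.07 (SE 0.36, adjusted p = 5.84e-04). Hhip passed the filter on low signal only through its bulge arrays, so a gap between bulge and the other fractions was a condition of its being tested.

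Gas1, a cell surface coreceptor that helps Shh bind Ptch1, had 12.70, 11.62, 12.44 and 12.41 in HG and 14.25, 14.67, 13.47 and 14.04 in bulge. No HG array reached the lowest bulge array. The difference was -1.82 (SE 0.29, adjusted p = 0.00264). Gas1 is also transcribed in dermal fibroblasts, and of 10 fibroblast markers 9 were lower in HG, with a median difference of -3.31. Their summed linear signal was 17588 to 31399 in HG, 133771 to 292415 in bulge and 20034 to 49437 in total keratinocytes, with none at the floor, and their part in the Hhip and Gas1 results was not tested. Of 9 melanocyte markers 8 were higher in HG, with a median difference of 2.69 and summed signals of 12338 to 21711 in HG, 7263 to 9587 in bulge and 1781 to 4581 in total keratinocytes. Of 6 cell cycle markers all 6 were higher in HG, with a median difference of 2.25. Their summed signals were 9719 to 36547 in HG, 2520 to 4740 in bulge and 5900 to 16516 in total keratinocytes. The part of the melanocyte and cell cycle markers in the higher Shh, Ptch1 and Gli1 was not tested. Of 5 dermal papilla markers tested 2 were higher and 1 was lower in HG, and the summed signal over 9 such markers was 2361 to 3754 in HG and 1896 to 4798 in bulge.

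Neither of the transducers passed. Smo had 11.76, 11.86, 11.94 and 11.58 in HG and 11.14, 11.87, 11.60 and 11.57 in bulge, a difference of 0.24 with a 95% interval of -0.13 to 0.61 (adjusted p = 0.349). Sufu had 9.06, 9.46, 9.31 and 8.69 in HG and 9.09, 9.20, 9.43 and 9.18 in bulge, a difference of -0.10 with an interval of -0.54 to 0.34. In both genes the fractions overlapped.

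Gli2, the main activator among the Gli proteins in skin, had 10.95, 10.92, 10.59 and 10.44 in HG and 10.87, 10.86, 11.01 and 10.92 in bulge. Gli3, known mostly as a repressor, had 9.85, 10.34, 9.37 and 10.01 in HG and 9.86, 9.77, 9.60 and 10.59 in bulge. Here too the fractions overlapped, and the intervals were -0.57 to 0.19 for Gli2 and -0.53 to 0.41 for Gli3.

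Gli1 and Gli2 were higher in both HG and bulge than in total keratinocytes. Gli1 had 7.07, 7.96, 7.22 and 7.61 in total keratinocytes, all below every HG array, and the Het total of set 2 alone overlapped with bulge. It was higher in HG by 1.92 (SE 0.22, adjusted p = 7.67e-04) and in bulge by 1.05 (SE 0.22, adjusted p = 0.00389). Gli2 had 8.48, 10.11, 9.47 and 10.12 in total keratinocytes, and was higher in HG by 1.18 (SE 0.28, adjusted p = 0.0206) and in bulge by 1.37 (SE 0.28, adjusted p = 0.00341). Gli3 had 8.08, 9.25, 9.28 and 9.87 there, and was higher in bulge by 0.84 (SE 0.27, adjusted p = 0.039), while the difference for HG was 0.77 (adjusted p = 0.0819). The Gli2 call in HG was lost without the cKO HG array of set 2 (0.92, adjusted p = 0.0905) or the cKO total array of set 1 (1.16, adjusted p = 0.0632), and the Gli3 call in bulge without any of 5 single arrays, with differences of 0.51 to 0.89. The lowest Gli2 and Gli3 signals of all 12 arrays were both in the cKO total array of set 2. That array had a summed signal of dissociation stress genes of 130689, against 37412 to 56764 on the other totals, and the cKO total array of set 1 had milk protein genes summing to 24789, against 63.1 to 92.9 on the other totals. The part of either list in the Gli2 and Gli3 levels was not tested.

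Counted over the 9 genes, 3 passed in HG against total keratinocytes, all higher, where 10.8% of 12749 genes passed, 5.11% higher. In bulge against total keratinocytes 5 passed, all higher, where 24.2% passed, 13.8% higher. In that comparison 9 of 10 fibroblast markers were also higher in bulge, with a median difference of 2.68, and so were 3 of 4 endothelial markers tested, with a median of 1.40. The endothelial signals, over 5 markers, summed to 494 to 753 in bulge and 146 to 358 in total keratinocytes, and Pecam1 was at the floor on 3 of 4 arrays of either fraction. The part of these markers in the Gli1, Gli2, Gli3, Hhip and Gas1 differences was not tested. In HG against total keratinocytes 1 fibroblast marker was higher and 3 were lower, while 8 of 9 melanocyte and 4 of 6 cell cycle markers were higher. All 6 cell cycle markers were lower in bulge than in total keratinocytes. The part of the melanocyte and cell cycle markers in these differences was not tested. Ptch1, with 10.46, 11.83, 10.97 and 11.16 in total keratinocytes, was the other gene higher in HG, by 1.39 (SE 0.26, adjusted p = 0.00857), and its bulge difference was 0.07. Hhip, with 4.37 at the floor, 6.07, 5.13 and 6.16 in total keratinocytes, was higher in bulge by 2.87 (SE 0.40, adjusted p = 2.66e-04). It is counted among the 5, though here too it was tested only because its bulge arrays exceeded the filter on low signal. Gas1, with 13.00, 12.98, 12.85 and 13.32, was higher in bulge by 1.07 (SE 0.25, adjusted p = 0.00823), and in HG its difference was -0.74 (adjusted p = 0.0774), with all 4 HG arrays below all 4 totals, as for 15.1% of genes whose arrays did not overlap in this comparison. Leaving out the Het HG array of set 2 moved this Gas1 difference to -0.44, and it passed without the Het bulge array of set 2 (-0.74, adjusted p = 0.0214).

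Shh in total keratinocytes varied most among the arrays, with 7.96, 10.85, 7.95 and 6.45. The Het array of set 2 stood above the other totals and above 3 of 4 HG arrays. Shh did not pass in either comparison, with 2.21 for HG (adjusted p = 0.0978) and -1.99 for bulge (adjusted p = 0.0953). For HG it passed without the Het total array of set 2 (3.0, adjusted p = 0.0395) or the Het bulge array of set 2 (2.21, adjusted p = 0.00377), and for bulge without the cKO bulge array of set 2 (-2.84, adjusted p = 0.0264). Without the Het bulge array of set 2 the bulge difference shrank to -0.71, and without the Het total array of set 2 to -1.21. Smo, with 11.45, 11.45, 11.49 and 11.60, and Sufu, with 9.09, 9.24, 9.32 and 9.34, did not pass either, and their differences from HG and bulge lay between -0.12 and 0.29.

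**Figure D2:**
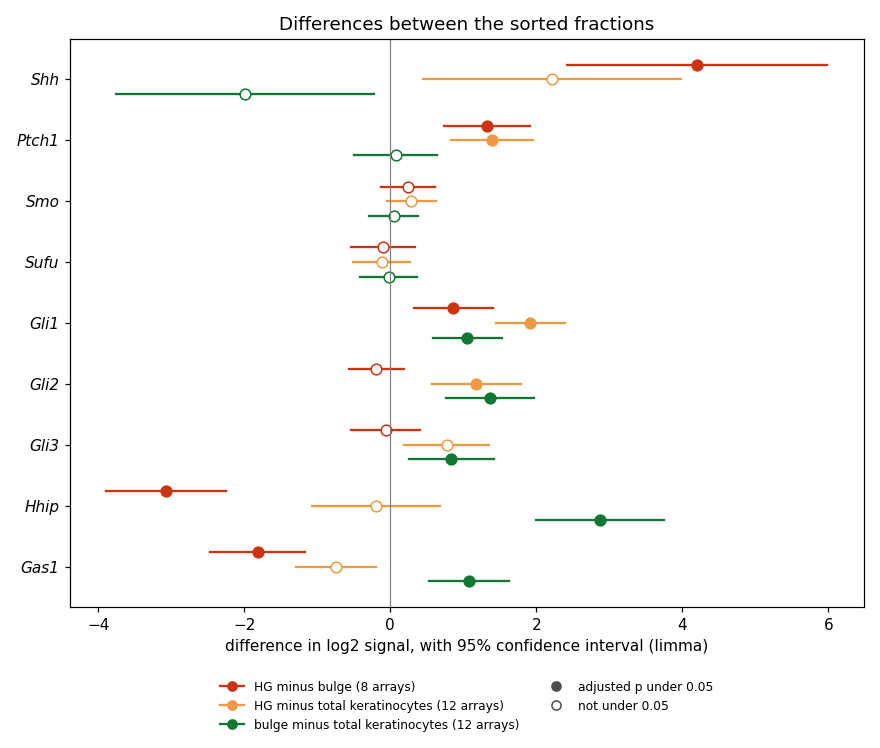
Differences in log2 signal between the sorted fractions for each gene, with 95% confidence intervals from limma. Filled points passed an adjusted p of 0.05. HG minus bulge runs from -3.07 for Hhip to 4.21 for Shh.

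The order of mean levels over the fractions differed between genes. Shh and Ptch1 were highest in HG, Gli1 was highest in HG, lower in bulge and lowest in total keratinocytes with each step past the test, and Hhip and Gas1 were highest in bulge. Neighbours whose difference did not pass were bulge and total keratinocytes for Ptch1, HG and bulge for Gli2 and Gli3, HG and total keratinocytes for Gli3, Hhip and Gas1, and all 3 fractions for Smo and Sufu. For Gas1 the HG arrays nevertheless lay below all totals, with a 95% interval of -1.29 to -0.19. For Shh the HG and bulge ends differed, and total keratinocytes in between did not pass against either.

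The 9 genes have 24 probe sets, of which 15 were not used above. The second probe set of Gas1 averaged 10.64 in HG and 12.51 in bulge (limma adjusted p = 0.00275). A second one of Hhip was at the floor on all 4 HG arrays and averaged 6.95 in bulge (limma adjusted p = 0.0066). It too passed the filter on low signal only through its bulge arrays, so a gap was a condition of its being tested. The remaining Hhip probe sets, at the floor on 6 and 8 of 12 arrays, did not pass the filter. Further probe sets of Smo, Gli2 and Gli3 with levels far above the floor differed by 0.23 or less between HG and bulge. A second Ptch1 probe set averaged 6.62 in HG and 5.79 in bulge and did not pass (adjusted p = 0.31), the other Shh probe set was at the floor on 9 of 12 arrays, and Gli1 has a single probe set.

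**Figure D3:**
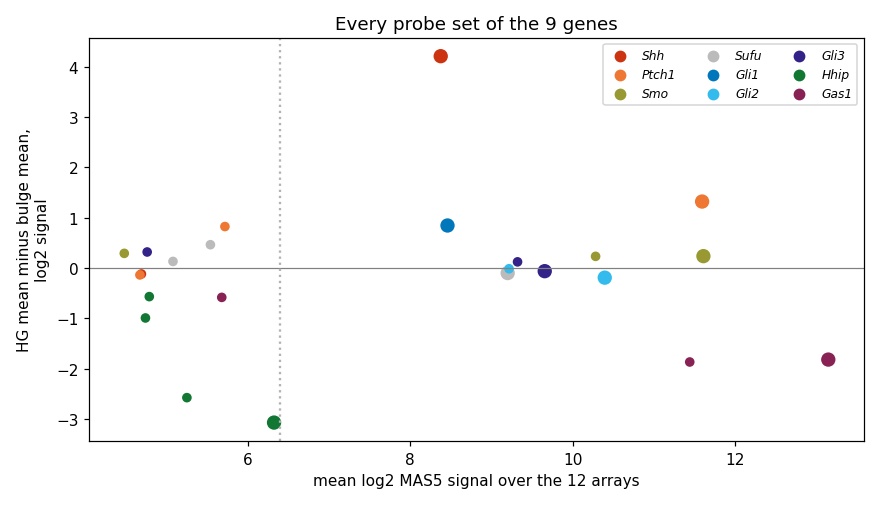
HG mean minus bulge mean in log2 signal for all 24 probe sets, against the mean log2 signal over 12 arrays. Large points are the probe sets used, and the dotted line marks the filter value of 6.40 on the axis of mean signal. The filter asked for 2 or more arrays above that value, so probe sets left of the line could still be tested. Both well measured Gas1 probe sets lie near -1.8. Among the dim probe sets left of the line are the Hhip probe set used, at -3.07, and a second one of Hhip at -2.57. One of Ptch1 lies there at 0.82 and one of Gas1 at -0.58.

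In Het mice the labels set activated HFSCs of set 2 against quiescent HFSCs of set 1, with 1 HG and 1 bulge array each. Here and in the HFSC comparisons that follow, the 2 fractions serve as the arrays of a condition. The spread is thus that between fractions and not between mice, and a gene that moves apart in HG and bulge gets a large SE. None of the 9 genes passed in set 2 against set 1 of Het mice with limma, where 89 genes (0.707%) passed. An unadjusted p under 0.05 was found for 16.8% of genes, and none of the 9 was among them. The difference was 1.00 (SE 1.12) for Shh, 0.77 (SE 0.37, adjusted p = 0.327) for Ptch1 and 0.29 (SE 0.34) for Gli1. HG and bulge moved apart for Shh, which in Het HG was 12.49 in set 2 against 9.84 in set 1, and in Het bulge 4.71 in set 2 against 5.37 in set 1. Without the Het bulge array of set 2, Shh gave 3.38 (adjusted p = 0.00138), Ptch1 1.44 (adjusted p = 0.00231) and Gas1 -0.90 (adjusted p = 0.0255). Without the Het HG array of set 2 instead, Shh gave -1.39, Ptch1 0.11 and Gas1 0.74, so Shh and Gas1 changed sign. Either way the set 2 arm is a single array, the spread comes from the other groups, and these p-values assume that the single array varies like them. The bulge array left out also had a summed signal of dissociation stress genes of 113117, against 23388 to 34918 on the other bulge arrays.

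As a single array, the activated Het HG array of set 2 had a Shh signal 6.22-fold the mean of the other 3 HG arrays, which lay between 9.75 and 9.97. Ptch1 was 2.41-fold and Gli1 1.67-fold that mean, and both were the highest of the 4 HG arrays. Gli3 and Sufu, at 1.52-fold and 1.35-fold the mean, were likewise the highest of the 4 HG arrays. Smo, Gli2 and Hhip were 1.20-fold the mean or less. Gas1 was the lowest at 0.539 of the mean, and the share of all genes lowest there was not counted. There is no replicate behind these folds. Among 12162 genes, 31.6% were highest on this array, as Shh, Ptch1, Gli1, Gli3 and Sufu were. Of these 12162 genes 4.37% were at least 2-fold above each other HG array, as Shh was. A share of 7.42% was at least 2-fold above the mean of the other HG arrays, as Shh and Ptch1 were. The same array had summed signals of 36547 for cell cycle genes, against 9719 to 13078 on the other HG arrays, and 34268 for hair matrix and shaft genes, against 2457 to 4158. Their part in the Shh, Ptch1 and Gli1 levels was not tested. Melanocyte markers summed to 12338 on this array, the lowest of the 4 HG arrays, and fibroblast markers to 31399, the highest of them. The mean log2 signal of the same 10 fibroblast markers was instead the lowest of the HG arrays, at 9.30 against 9.62 to 10.16.

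In total keratinocytes Shh was again highest on the Het array of set 2. It read 10.85 in set 2 against 6.45 in set 1, while the cKO total arrays read 7.96 in set 2 and 7.95 in set 1. Among 11723 genes, 1.37% were at least 2-fold above each other total array on the Het array of set 2, Shh being one of them. Its cell cycle genes summed to 16516, against 5900 to 6967 on the other totals, and its hair matrix and shaft genes to 12580, against 1218 to 2642. Their part in the Shh level was not tested.

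**Figure D4:**
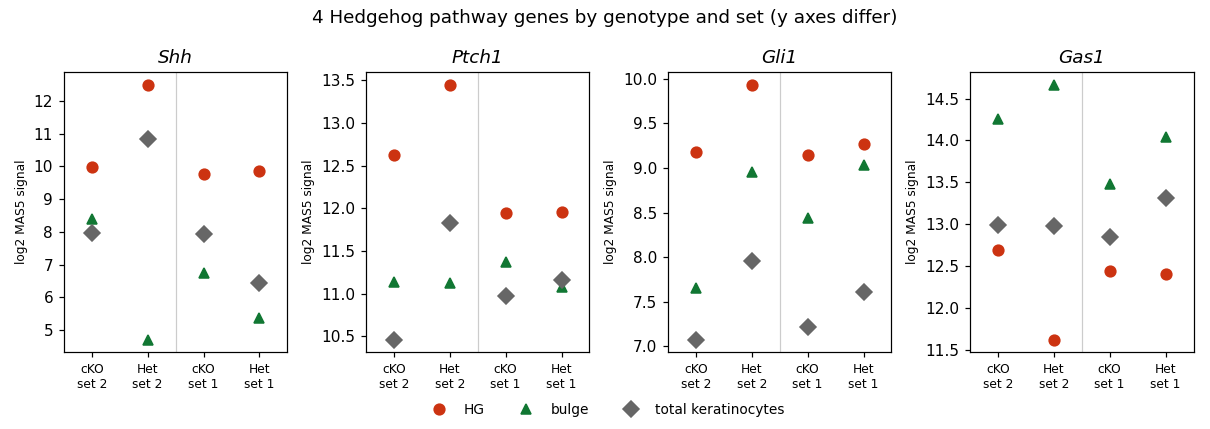
Log2 signal of Shh, Ptch1, Gli1 and Gas1 by genotype and set, 1 array per point, with HG as circles, bulge as triangles and total keratinocytes as diamonds. The y axes differ between panels. Shh, Ptch1 and Gli1 are highest in the Het HG array of set 2, and Gas1 is lowest there.

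In cKO HFSCs, set 2 against set 1 gave no call among the 9 genes and none among all genes (0%) with limma, where 6.17% had an unadjusted p under 0.05. Shh in cKO HG was 9.97 in set 2 against 9.75 in set 1, and Ptch1 12.63 against 11.95. The test of whether the set difference depends on genotype called none of the 9, where 0.00794% of genes passed and 7.28% had an unadjusted p under 0.05. In set 2 alone, cKO and Het HFSCs also differ in labelled state, aberrantly quiescent against activated. In that comparison 0.262% of genes passed, 17.7% had an unadjusted p under 0.05, and none of the 9 passed. There Gli1 had the smallest p of the 9, with a difference of -1.03 (SE 0.34, adjusted p = 0.18), and it alone had an unadjusted p under 0.05. Shh differed by 0.59 in this comparison, by -1.80 (adjusted p = 0.0487) without the Het bulge array of set 2 and by 2.97 (adjusted p = 0.0338) without the Het HG array of set 2, again with a single Het array in set 2. In set 1 alone neither any of the 9 nor any other gene passed (0%), and 2.07% had an unadjusted p under 0.05. Of the 9 only Gli3 was among the latter, with a difference of -0.81 (SE 0.29).

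Across all 6 pairs of cKO and Het arrays of the same fraction and set, none of the 9 genes passed, and none of 12749 genes did (0%) with limma, where 1099 (8.62%) had an unadjusted p under 0.05. Gli1 and Gli3 were among the latter. Gli1 was lower in cKO in 6 of 6 pairs, by -0.76 and -0.13 in HG, -1.30 and -0.60 in bulge and -0.88 and -0.39 in total keratinocytes, set 2 before set 1. The gap was wider in set 2 in each fraction, the mean difference was -0.68 (SE 0.19, adjusted p = 0.469), and 2.13% of all genes were lower in cKO in all 6 pairs. In set 2 the labelled state of HFSCs also differs between genotypes, so genotype and state cannot be told apart there. Whether fractions of 1 condition share mice is not known, so the 6 pairs may not be independent. Gli3 was lower in 5 of 6 pairs, with a mean difference of -0.63 (SE 0.17, adjusted p = 0.469), and the share of all genes lower in 5 of 6 pairs was not counted. Shh pointed both ways, with set 2 differences of -2.52 in HG, 3.69 in bulge and -2.88 in total keratinocytes. Gli2 differed by -1.62 and -0.65 in total keratinocytes and by at most 0.15 in HG and bulge.

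**Figure D5:**
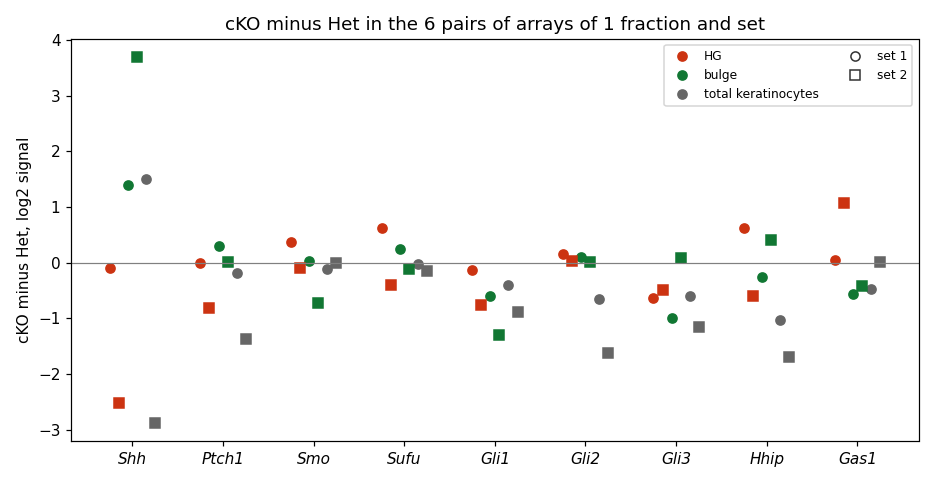
cKO minus Het log2 signal in each of the 6 pairs of arrays of 1 fraction and set, for the 9 genes. All 6 points of Gli1 lie below 0, and those of Shh run between -2.88 and 3.69.

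Of 38 other genes of the pathway, 34 were measured and 29 passed the filter on low signal. In HG against bulge 5 were higher and 5 lower, where 8.44% and 10.7% of all genes were, and their median difference was -0.11 against -0.02 over all genes. The higher ones with the largest changes were Scube3, a secreted protein of the family that helps release Shh, at 3.66 (adjusted p = 9.35e-04) and Mycn, a growth regulator and Hedgehog target, at 2.5 (adjusted p = 5.99e-04). Scube3 passed the filter through HG arrays alone, so a gap was a condition of its being tested, and it was at the floor on 3 of 4 bulge arrays. The lower ones were led by Sox9, a transcription factor of bulge cells, at -3.22 (adjusted p = 1.37e-05) and Cdon, a Shh coreceptor, at -1.70 (adjusted p = 0.00739). Boc, the paralogue of Cdon, was also lower at -0.87 (adjusted p = 0.0118), as was their fellow coreceptor Gas1. Of the other 2 ligand genes, Dhh read 4.37 to 6.45 and Ihh 4.70 to 6.54 over the 12 arrays.

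Mycn had 10.20, 12.01, 9.41 and 9.66 in HG and 8.54, 8.37, 7.21 and 7.15 in bulge, so its highest array, like that of Shh, was Het HG of set 2. In HG against total keratinocytes 5 of the 29 were higher and 1 lower, where 10.8% of all genes passed and 5.11% were higher. They were led by Scube3 at 2.66, Mycn at 1.48 and Sox9 at -1.17, followed by Ift88, a cilium protein, at 0.92. Scube3 is counted among the 5, though here too only its HG arrays exceeded the filter on low signal. A gap between HG and total keratinocytes was thus a condition of its being tested. In bulge against total keratinocytes 10 were higher and 3 lower, where 24.2% of all genes passed and 13.8% were higher. They were led by Sox9 at 2.05, Btrc, part of the ligase that marks Gli proteins, at 1.59, Scube2 at 1.52 and Boc at 1.51. The median differences over the 29 were 0.16 for HG, against 0.04 over all genes, and 0.45 for bulge, against 0.05. The fibroblast markers were higher in bulge here too, and their part in these differences was not tested. None of the 29 passed in the comparisons of genotypes or sets.

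Over the 12 arrays Shh correlated with Ptch1 (Pearson r = 0.77) more than with Gli1 (r = 0.31), and with the fraction means removed r was 0.62 and -0.05. Ptch1 and Gli1 gave r = 0.77 and 0.56 within fractions, and Gli2 and Gli3 0.83 and 0.73. Gas1 and Hhip gave 0.76, and -0.17 within fractions. Of 12748 other genes, those most like Shh were Mrps18b (r = 0.97), Mre11a (0.97), Wdr12 (0.96) and Rnaseh2b (0.95). Those most like Gli1 were Armcx2 (0.94), Mphosph9 (0.92), Eya1 (0.91) and Golm2 (0.90), and those most like Hhip were Nckap5 (0.97), Rnf152 (0.96), Dixdc1 (0.96) and Enc1 (0.96). With the fraction means removed, r was 0.90 to 0.96 for the 4 genes most like Shh, 0.63 to 0.86 for those most like Gli1 and 0.67 to 0.77 for those most like Hhip. The 12 arrays share fractions, conditions and, in part, the same high array, so these values are descriptions and not tests.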

How the data were processed

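The authors deposited 1 signal intensity per probe set and array, made with MAS5 per the submitters' processing notes (version not given in the sources used here), with a trimmed mean of 500 on each array when 2% of values are trimmed at each end. Of 45101 probe sets 64 were controls, 34945 had 1 symbol, 932 several and 9160 none, which gave 18193 genes by the probe set of highest mean signal. The deposited intensity was floored at 20.7, its pooled 25th percentile, and turned into log2. A gene was tested if 2 or more arrays of a fit exceeded 84.7 (pooled median), using limma 3.58.1 in R 4.3.3 (lmFit, eBayes with trend, two-sided, Benjamini-Hochberg over all genes).

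Fractions were compared with the condition of genotype and set as a block, genotypes with fraction and set as a block, and sets within HFSCs with fraction as a term. Named were the 9 genes, up to 4 changed genes of the pathway list per comparison, 4 genes most like Shh, Gli1 and Hhip, and markers that moved with a result. Boc in HG against bulge, Dhh and Ihh were named for their roles after their values were seen. The 9 genes and all lists were chosen with earlier results of these data known. Alternatives covered normalization, floor, filter, probe sets, prior variance, block and left-out arrays. The fits were tested on simulated data.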

Additional observations from a re-analysis of the deposited data

How the results depend on the processing

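The number of the 9 genes called was 5 in HG against bulge, 3 in HG against total keratinocytes, 5 in bulge against total keratinocytes and 0 elsewhere. With no filter on low signal, so that genes at the floor were tested too, it was 1, 1 and 3, and the cause of the drop was not tested. In HG against bulge Hhip alone kept its call, while Shh (limma adjusted p = 0.135), Ptch1, Gli1 and Gas1 missed the threshold. When a gene's probe sets were averaged, bulge against total keratinocytes gave 3, and Ptch1 in HG against bulge, at 0.67, missed the threshold. Without all cKO arrays of set 2, HG against total keratinocytes gave 1 and bulge against total keratinocytes 3. Leaving out single arrays gave 4 to 5 in HG against bulge, 2 to 5 in HG against total keratinocytes, 4 to 5 in bulge against total keratinocytes, 0 to 3 in set 2 against set 1 of Het HFSCs, 0 to 3 in cKO against Het of set 2 and 0 to 2 in the test of genotype by set, and the cause was not tested. The high ends of the last 3 came without the Het bulge array of set 2, where the Shh difference between cKO and Het in set 2 turned to -1.80, and it was 2.97 without the Het HG array of set 2. In cKO against Het 0 of 9 genes were called under all 30 alternative settings.

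Without the replicate block the counts were 4, 3 and 4 in the fraction comparisons, and 0 in cKO against Het with or without the set as replicate block. Deviations of same-numbered total arrays from their genotype means correlated at 0.40 over genes. With 2 totals per genotype these deviations mirror each other, so the 2 pairs amount to a single comparison. By gene, Gli1 in HG against bulge was called in 12 of 22 alternative settings, Gli3 in bulge against total keratinocytes in 12 of 25 and Gli2 in HG against total keratinocytes in 19 of 25, while Shh in HG against bulge was called in 21 of 22 and Hhip in 21 of 21. Over all genes the count of calls ran between 648 and 3639 in HG against bulge, 269 and 1943 in HG against total keratinocytes, 1909 and 4530 in bulge against total keratinocytes, 0 and 2552 in the Het sets, 0 and 92 in the cKO sets, 0 and 2438 in the genotypes of set 2, 0 and 3 in those of set 1, and 0 and 994 in the test of genotype by set. Under quantile normalization the single-array difference of the Het HG array of set 2 from the other HG arrays was 2.56 for Shh, against 2.64, and 0.67 for Hhip, against 0.03. Signals near the floor, those of Hhip outside bulge and Shh in Het bulge, limit the size of their differences.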
